A study of Mus musculus with 6 samples.

Results

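A set of 10 B cell and plasma cell transcripts was examined in sorted bone marrow progenitors. Of the 22180 genes with a probe set of their own, these 10 were chosen by name, with earlier results of the same arrays known. Jchain, Mzb1, Xbp1, Ighm and Iglv1 mark antibody-secreting plasma cells. Cd79a, Cd79b, Igll1, Vpreb1 and Pax5 were grouped as early B genes, without a claim that each is confined to early B cells. All 10 were measured. Of the probe sets annotated to a gene alone, the brightest by mean over the 6 arrays was used. The cells were lineage-negative, Sca1-positive, cKit-positive (LSK) cells, which include the blood stem cells and the multipotent progenitors of the marrow, with 1 Affymetrix mouse gene array for each sample. The Tifab_KO group held LSK cells from 3 mice transplanted with Tifab-/- marrow, and the Tifab_WT group held LSK cells from 3 mice transplanted with Tifab+/+ marrow. Both groups were therefore transplanted, and the labels name lethally irradiated Boy/J recipients given 7 Gy and, 3 hours later, 4.75 Gy. The 3 months in the labels may count from birth or from the transplant, and the labels list neither the lineage antibodies nor a donor marker in the sort. The p-values below measure the spread between these 6 arrays.

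Values are the authors' deposited log2 probe set values, so a difference of 1 is a doubling on the array. Over all probe sets the medians of the arrays ran from 4.05 to 4.10. Arrays correlated at r = 0.985 to 0.986 within Tifab_KO and 0.976 to 0.979 within Tifab_WT, across genes, which are not independent replicates. Tifab itself read 5.21, 5.12 and 5.26 in Tifab_KO arrays, against 4.99, 5.37 and 5.53 in Tifab_WT arrays. The groups overlapped, and whether the probes fall inside the deleted stretch is not stated, so the probe set checks no label and every direction below rests on the labels. Of the genes that mark these progenitors, Kit read 9.41 to 9.59 in Tifab_KO arrays and 9.50 to 9.69 in Tifab_WT arrays, and Cd34 read 10.47 to 10.66 in Tifab_KO arrays and 10.32 to 10.55 in Tifab_WT arrays. Ly6a, the gene of Sca1, was not analysed here. Among the B-lineage genes Tifab_WT replicate 3 stood apart from the other Tifab_WT arrays, so differences and list medians are given with and without it.

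B cells develop in the marrow from lymphoid progenitors. The transcription factors EBF1, E2A and PAX5 install the programme, the heavy chain gene is rearranged, and its product is first carried to the surface with a surrogate light chain made of the VpreB and lambda5 proteins, next to the signalling subunits CD79A and CD79B. After antigen encounter, PRDM1, IRF4 and XBP1 turn a B cell into a plasma cell, PAX5 is shut off, and the cell fills with endoplasmic reticulum for antibody secretion. Plasma cells lodge for long periods in bone marrow.

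Of the 10 genes, 6 matched the promoter table of RefSeq on GRCm38.p6, and the 250 bases before the start site of 4 of them are shown. Tifab_WT replicate 3 was the highest Tifab_WT array in Jchain, Xbp1 and Cd79a, and it was not in Igll1. Capitals mark the E-box letters that E2A binds (CAGGTG or CACCTG) and the letters of an EBF1 site (CCCNNGGG), read on both strands; these did not overlap.
Jchain, chr5:88527898-88528147, minus strand: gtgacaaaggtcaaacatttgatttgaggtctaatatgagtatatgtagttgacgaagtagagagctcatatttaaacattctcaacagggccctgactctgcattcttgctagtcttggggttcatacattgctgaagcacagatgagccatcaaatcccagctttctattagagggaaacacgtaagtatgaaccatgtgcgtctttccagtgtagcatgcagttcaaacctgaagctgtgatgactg
Xbp1, chr11:5520391-5520640, plus strand: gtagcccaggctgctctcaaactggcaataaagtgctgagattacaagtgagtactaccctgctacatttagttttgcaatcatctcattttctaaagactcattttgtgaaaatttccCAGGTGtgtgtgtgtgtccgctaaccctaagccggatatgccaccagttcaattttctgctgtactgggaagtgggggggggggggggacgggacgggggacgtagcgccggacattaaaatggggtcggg
Cd79a, chr7:24897247-24897496, plus strand: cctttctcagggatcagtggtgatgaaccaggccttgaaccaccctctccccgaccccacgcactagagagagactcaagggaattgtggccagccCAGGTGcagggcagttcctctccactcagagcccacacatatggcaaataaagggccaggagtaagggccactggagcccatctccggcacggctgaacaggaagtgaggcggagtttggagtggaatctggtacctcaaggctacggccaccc
Igll1, chr16:16863986-16864235, minus strand: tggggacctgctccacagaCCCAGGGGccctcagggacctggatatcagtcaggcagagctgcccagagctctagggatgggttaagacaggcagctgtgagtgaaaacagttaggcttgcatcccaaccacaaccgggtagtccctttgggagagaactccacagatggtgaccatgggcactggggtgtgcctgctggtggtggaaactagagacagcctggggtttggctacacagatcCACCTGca
The E-box letters stood in the windows of 4 of the 6 genes, at 154 bases before the start site in Cd79a, 131 before it in Xbp1, 88 before it in Vpreb1 and 8 before it in Igll1, against 17.2% of 32851 promoter windows in the table. The EBF1 letters stood in 1 of the 6, Igll1, against 11.8% of windows. The octamer ATGCAAAT (ATTTGCAT on the other strand), bound by the POU factors that act with Pou2af1, stood in 0 of the 6, against 1.6% of windows. The windows of Jchain and Pax5 held none of these letters. A match is a description of the letters and not of a bound site. A window without these exact letters, such as that of Cd79a for EBF1, may still hold a site.

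The plasma cell transcripts lay between the low and the high Tifab_WT arrays in the Tifab_KO arrays, except that Xbp1 was highest in Tifab_KO replicate 2. Jchain, Mzb1 and Ighm were even across the Tifab_KO arrays, which spanned 1.14 log2 units in Xbp1 and 0.64 in Iglv1. All 5 had a higher mean in Tifab_KO, with log2 differences of 0.09 to 1.63 and a median of 0.52, but the groups overlapped in each of the 5 genes, where 16.1% of all genes had groups that did not overlap. Tifab_WT replicates 1 and 2 read below every Tifab_KO array in all 5 genes, and Tifab_WT replicate 3 read above every Tifab_KO array in 4 of them. The contrast between the genotypes was part of what the genes were chosen from, so these values are a description.

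Jchain, which encodes the joining chain that links IgM and IgA into polymers, read 9.73, 9.80 and 9.87 in Tifab_KO arrays, against 8.42, 8.99 and 10.39 in Tifab_WT arrays. The Tifab_KO arrays lay within 0.13 log2 units of each other and between the Tifab_WT arrays. The log2 difference was 0.53 ± 0.39 (SE, n = 3 each), or 1.09 ± 0.17 (SE) without Tifab_WT replicate 3.

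Mzb1, an endoplasmic reticulum chaperone that helps antibody assembly, read 6.41, 6.50 and 6.35 in Tifab_KO arrays, against 5.15, 5.67 and 8.17 in Tifab_WT arrays. The Tifab_WT arrays spanned 3.02 log2 units and the Tifab_KO arrays 0.15. The means nearly coincided, at 6.42 ± 0.08 in Tifab_KO and 6.33 ± 1.62 in Tifab_WT (SD, n = 3 each). The log2 difference of 0.09 became 1.01 without Tifab_WT replicate 3 and -0.50 without Tifab_WT replicate 1.

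Xbp1, the transcription factor of the unfolded protein response that plasma cells need for secretion, read 7.72, 8.87 and 7.76 in Tifab_KO arrays, against 7.18, 7.11 and 8.52 in Tifab_WT arrays. Here 1 array of each label was high, Tifab_KO replicate 2 and Tifab_WT replicate 3. The log2 difference of 0.52 ± 0.40 (SE, n = 3 each) was 0.97 without Tifab_WT replicate 3 and 0.14 without Tifab_KO replicate 2.

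Iglv1, a variable segment of the lambda light chain, had the largest difference of the 10 genes. It read 8.39, 9.03 and 8.41 in Tifab_KO arrays, against 5.71, 5.79 and 9.45 in Tifab_WT arrays. Tifab_WT replicate 3 was 13.0 times the mean of the other Tifab_WT arrays on the linear scale and above every Tifab_KO array. The log2 difference was 1.63 ± 0.83 (SE, n = 3 each), or 3.10-fold, and without Tifab_WT replicate 3 it was 2.86 ± 0.22 (SE), or 7.28-fold. In that fit without the array its adjusted p was 0.0133 in limma over all genes, and with all 6 arrays it was 0.529. Tifab_WT replicate 3 therefore decides whether Iglv1 passes the adjusted threshold of 0.05. That array was left out because B-lineage genes, Iglv1 among them, stood apart in it. The fit without it is thus a description of Iglv1 and not a test.

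Ighm, the constant region of the IgM heavy chain, is transcribed in B cells of all stages as well as in IgM plasma cells. Its probe set lay near the top of the array's signal range, at 12.51, 12.48 and 12.61 in Tifab_KO arrays, against 12.26, 12.14 and 12.64 in Tifab_WT arrays. Tifab_WT replicates 1 and 2 were again the lowest arrays. The log2 difference was 0.19 ± 0.11 (SE, n = 3 each), or 0.34 without Tifab_WT replicate 3. The 7 probe sets annotated to Ighm alone disagreed, with log2 differences of -2.19 to 1.05, of which 5 were positive, and mean values between 4.73 and 12.44. In 1 of the dim ones, 2 arrays read 8.57 and 8.82, Tifab_KO replicate 3 and Tifab_WT replicate 3, and the other arrays 2.65 to 2.99. A further 3 probe sets carried Ighm with other symbols and were left out.

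**Figure D1:**
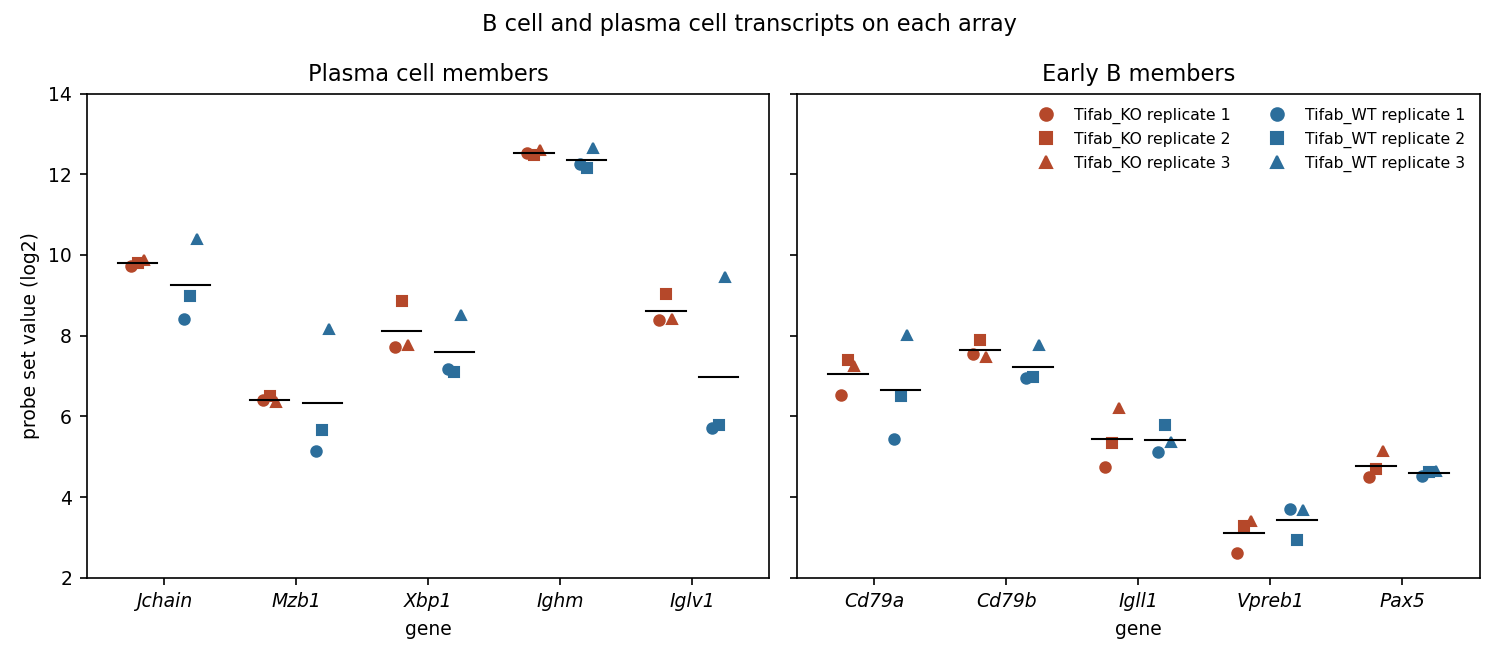
Log2 probe set values (vertical axis) of the 5 plasma cell and the 5 early B genes on each array, Tifab_KO left of Tifab_WT within each gene, with replicates as separate symbols and group means as black lines. In the plasma cell genes the Tifab_KO arrays lie above Tifab_WT replicates 1 and 2, while Tifab_WT replicate 3 is the highest array in 4 of the 5.

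The early B transcripts fell into 2 patterns. The signalling subunit genes Cd79a and Cd79b varied like the plasma cell genes, while Igll1, Vpreb1 and Pax5 did not. Over the 5 genes the median log2 difference was 0.17, with 4 higher and 1 lower in Tifab_KO, and the groups overlapped in all 5. The median was 0.19 without Tifab_WT replicate 3, and turned to -0.13 without Tifab_WT replicate 1 and to -0.01 without Tifab_KO replicate 3.

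Cd79a, the Ig-alpha subunit of the B cell receptor, read 6.52, 7.39 and 7.25 in Tifab_KO arrays, against 5.44, 6.51 and 8.01 in Tifab_WT arrays. Tifab_WT replicate 3 was the highest array and Tifab_WT replicates 1 and 2 the lowest. The log2 difference of 0.40 ± 0.53 (SE, n = 3 each) was 1.08 without Tifab_WT replicate 3 and -0.21 without Tifab_WT replicate 1. Cd79b, the Ig-beta subunit, read 7.55, 7.89 and 7.47 in Tifab_KO arrays, against 6.95, 6.99 and 7.77 in Tifab_WT arrays. As in Xbp1, Tifab_KO replicate 2 and Tifab_WT replicate 3 were the highest arrays, and the log2 difference was 0.40 ± 0.23 (SE, n = 3 each), or 0.67 without Tifab_WT replicate 3.

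Igll1, which encodes the lambda5 part of the surrogate light chain, read 4.75, 5.35 and 6.22 in Tifab_KO arrays, against 5.12, 5.79 and 5.36 in Tifab_WT arrays. Tifab_WT replicate 3 was the middle array of its group here, and the log2 difference was 0.02 ± 0.34 (SE, n = 3 each), or -0.01 without that array. Vpreb1, the other part of the surrogate light chain, was dim, at 2.61, 3.27 and 3.41 in Tifab_KO arrays, against 3.71, 2.93 and 3.69 in Tifab_WT arrays. It was the only one of the 10 genes with a lower mean in Tifab_KO, by -0.34 ± 0.27 (SE, n = 3 each) with all arrays and -0.22 without Tifab_WT replicate 3, and lay below the 40th percentile of signal over all genes. Pax5, the transcription factor that fixes B cell identity and that plasma cells shut off, read 4.49, 4.69 and 5.13 in Tifab_KO arrays, against 4.53, 4.62 and 4.64 in Tifab_WT arrays. Its Tifab_WT arrays lay within 0.11 log2 units of each other, while those of Mzb1 spanned 3.02. The log2 difference was 0.17 ± 0.19 (SE, n = 3 each), or 0.19 without Tifab_WT replicate 3.

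Of the 10 genes, 0 passed the looser rule of an unadjusted p under 0.05 and a 1.5-fold change, which 2.73% of all genes passed in limma, and 0 passed an unadjusted p under 0.05 alone, which 10.3% of genes did. Their adjusted p in limma lay between 0.529 and 0.991, and 0 of 22180 genes passed an adjusted p of 0.05. In 0 of the 10 were the groups apart. Without Tifab_WT replicate 3, the 3 Tifab_KO arrays lay above both remaining Tifab_WT arrays in 7 of the 10, all 5 plasma cell genes with Cd79a and Cd79b, where 14.8% of all genes did so. The pooled median of the 10 log2 differences was 0.29, and 0.82 without that array, beside a median of 0.00 over all genes in both cases. With Tifab_KO replicate 2 left out instead, the median of the 10 was 0.21. That of the 5 plasma cell genes was then 0.22, against 0.52 with all arrays. The genes were chosen with this contrast known, so these counts describe them and support nothing.

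**Figure D2:**
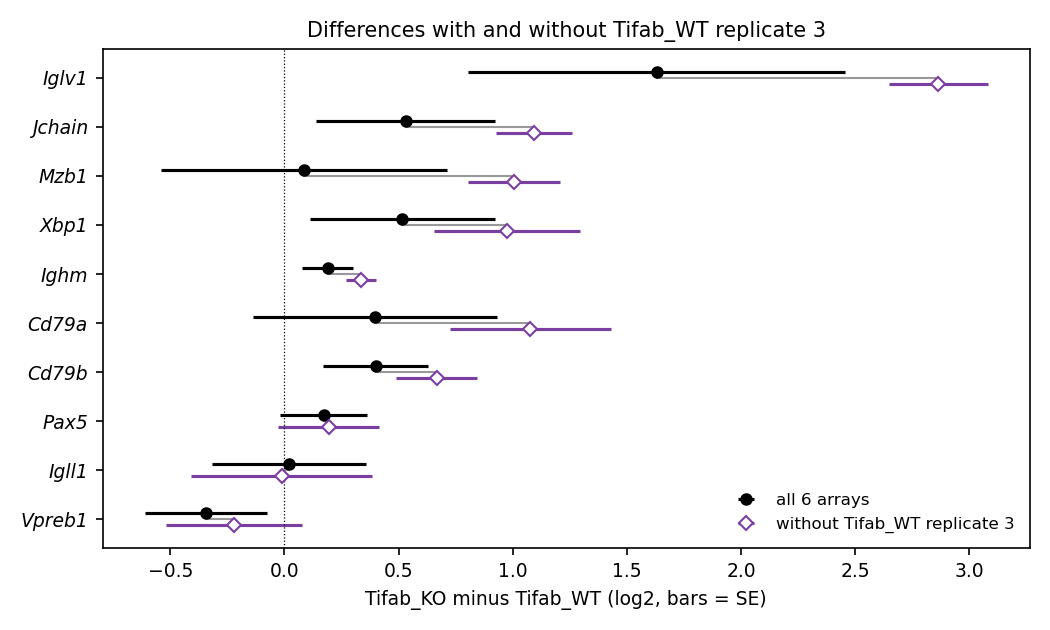
Log2 difference, Tifab_KO minus Tifab_WT (horizontal axis), of each gene, with all 6 arrays (filled circles) and without Tifab_WT replicate 3 (open diamonds); bars are SE from limma. Without that array Iglv1 is at 2.86 and Jchain, Mzb1, Xbp1 and Cd79a lie between 0.97 and 1.09, while Igll1 stays near 0.

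In 9 of the 10 genes, all but Pax5, the range of the Tifab_WT arrays exceeded the difference between the group means. Tifab_WT replicate 3 exceeded both other Tifab_WT arrays by at least 1 log2 unit in 4 of the 5 plasma cell genes and in 1 of the 5 early B genes, Cd79a; this held for 0.473% of all genes. After each gene was centred on its mean over the arrays, the mean of the 5 plasma cell genes was 0.15, 0.53 and 0.20 in Tifab_KO arrays, against -1.06, -0.86 and 1.03 in Tifab_WT arrays. The early B mean was -0.35, 0.18 and 0.36 in Tifab_KO arrays, against -0.38, -0.17 and 0.36 in Tifab_WT arrays. The early B mean thus covered about the same range in both groups, and the plasma cell mean was widest in Tifab_WT. In bulk RNA, fewer cells of a type and less RNA per cell cannot be told apart.

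A list of 25 plasma cell genes, 24 of them measured, was examined beside the 10 genes. It was chosen with earlier results of these arrays known. Without the 3 of the 10 that it also holds, 18 of 21 genes had a higher mean in Tifab_KO and 3 a lower one, with a median log2 difference of 0.33. None passed an unadjusted p under 0.05 in limma, alone or with 1.5-fold. Of all genes 10.3% passed that p alone, and with 1.5-fold 1.29% passed as higher and 1.43% as lower. Without Tifab_WT replicate 3 the median was 0.46 and 9 of the 21 passed as higher, where 2.29% of all genes did. That array was left out because B-lineage genes stood apart in it, so this count is a description and tests nothing. Without Tifab_KO replicate 2 the median was 0.07 and 15 were higher. Within Tifab_WT, replicate 3 was the highest array in 20 of the 21, against 32.3% of all genes. The summed linear signal of all 24 ran from 4383 to 6546 in Tifab_KO arrays and was 3062, 3447 and 6375 in Tifab_WT arrays.

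Tnfrsf17, the BCMA receptor through which plasma cells survive, read 4.94, 6.37 and 5.00 in Tifab_KO arrays, against 3.24, 3.40 and 6.41 in Tifab_WT arrays, a log2 difference of 1.09 ± 0.75 (SE, n = 3 each), or 2.12 without Tifab_WT replicate 3. Pou2af1, a coactivator of immunoglobulin transcription, read 7.80, 8.88 and 7.90 in Tifab_KO arrays, against 6.81, 6.57 and 8.69 in Tifab_WT arrays, a log2 difference of 0.84 (1.79-fold), or 2.84-fold without that array. Both had the same pair of high arrays, Tifab_KO replicate 2 and Tifab_WT replicate 3. Sdc1, the surface proteoglycan CD138, read 6.02, 7.84 and 5.88 in Tifab_KO arrays, against 5.85, 4.60 and 7.09 in Tifab_WT arrays. Its log2 difference was 0.74, or 1.36 without Tifab_WT replicate 3. Irf4, a transcription factor of plasma cell fate, read 5.26, 6.68 and 5.34 in Tifab_KO arrays, against 4.19, 4.73 and 6.39 in Tifab_WT arrays, a log2 difference of 0.66, or 1.30 without that array. Prdm1, which encodes the repressor BLIMP1, varied less, at 4.87, 5.43 and 5.21 in Tifab_KO arrays, against 4.62, 4.88 and 5.52 in Tifab_WT arrays, a log2 difference of 0.17, or 0.43 without Tifab_WT replicate 3. Those 2 arrays were the highest pair of the 6 in 15 of the 21 genes, against 6.85% of all genes, a count chosen after the values were seen. In Jchain, Mzb1 and Ighm, Tifab_KO replicate 2 was at most 0.12 log2 units from the mean of the other Tifab_KO arrays, against 1.12 above it in Xbp1 and 0.63 in Iglv1.

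**Figure D3:**
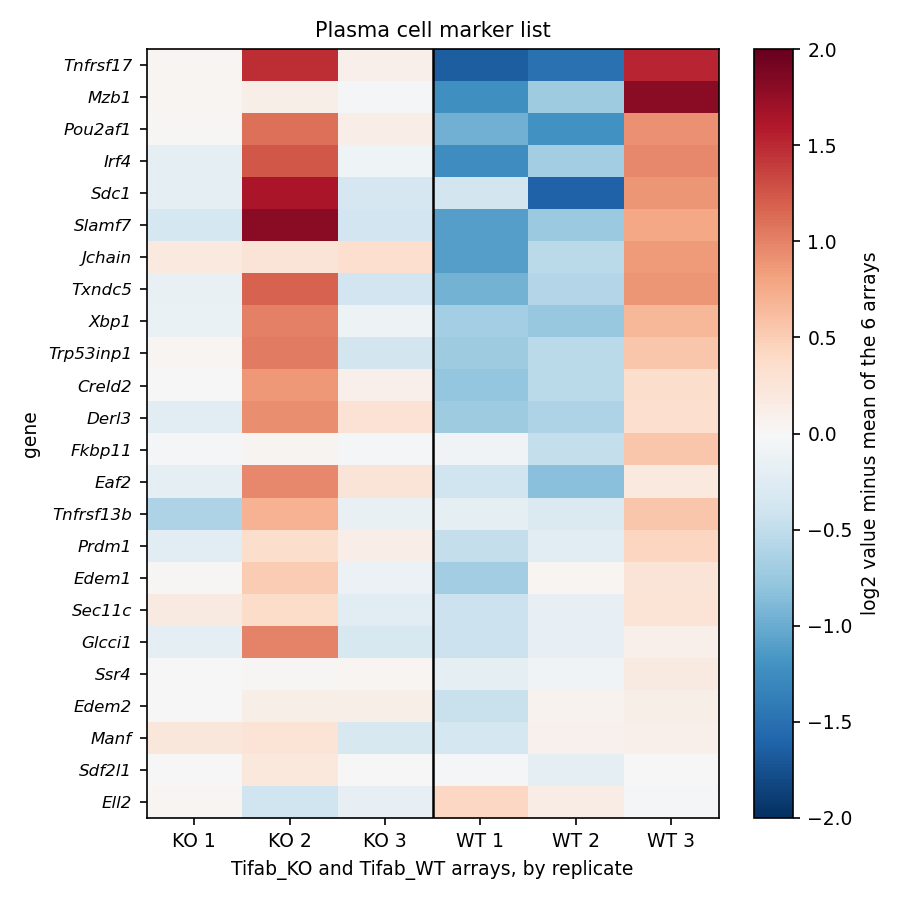
Plasma cell marker list, 1 gene per row ordered by how far Tifab_WT replicate 3 lay above the other Tifab_WT arrays, 1 array per column (Tifab_KO left of Tifab_WT), coloured by log2 value minus the gene's mean over the 6 arrays. Tifab_KO replicate 2 and Tifab_WT replicate 3 are the warm columns, and Jchain is even across the Tifab_KO arrays.

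Genes of the unfolded protein response, the secretory stress programme that Xbp1 drives, were mostly higher in Tifab_KO, 17 of 20 with a median log2 difference of 0.15. The median was 0.23, with 18 higher, without Tifab_WT replicate 3, and 0.10, with 13 higher, without Tifab_KO replicate 2. A single gene of the 20 passed an unadjusted p under 0.05 with 1.5-fold as higher, where 1.29% of all genes did: Sec61b, a subunit of the channel that threads proteins into the endoplasmic reticulum. It read 10.78, 10.59 and 10.88 in Tifab_KO arrays, against 9.86, 9.71 and 10.33 in Tifab_WT arrays. The groups did not overlap, as for 7.75% of all genes in the higher direction, its log2 difference was 0.78 ± 0.15 (SE, n = 3 each) or 0.96 without Tifab_WT replicate 3, and Tifab_WT replicate 3 stayed below the Tifab_KO arrays. By limma, 2 of the 20 reached an unadjusted p below 0.05, about the share of all genes that did (10.3%), and 0 an adjusted one.

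Further early B genes moved less on the median than the plasma cell list, and some followed its pattern. Of the 19 measured genes of the early B list outside the 10, 12 were higher and 7 lower in Tifab_KO, with a median log2 difference of 0.03, or 0.14 without Tifab_WT replicate 3. None passed an unadjusted p under 0.05 in limma, where 10.3% of all genes did. Within Tifab_WT, replicate 3 was the highest array in 13 of the 19, against 32.3% of all genes. Without that array, left out for its high B-lineage values, 2 of the 19 passed an unadjusted p under 0.05 with 1.5-fold as higher. Of all genes 2.29% did so, and the count is a description. These 2 were Pou2af1, which the plasma cell list also holds, and Blnk, an adaptor of B cell receptor signalling, named after its values were seen. Blnk read 6.11, 6.73 and 6.22 in Tifab_KO arrays, against 5.81, 5.52 and 6.86 in Tifab_WT arrays. Its log2 difference was 0.29, or 0.69 without Tifab_WT replicate 3 and 0.10 without Tifab_KO replicate 2. Ebf1, the factor that commits progenitors to the B lineage, read 4.05, 4.58 and 4.60 in Tifab_KO arrays, against 4.01, 4.06 and 4.35 in Tifab_WT arrays, a log2 difference of 0.27, or 0.37 without Tifab_WT replicate 3. Dntt, the template-free DNA polymerase of early lymphoid progenitors, read 9.52, 9.27 and 9.21 in Tifab_KO arrays, against 9.55, 9.54 and 9.67 in Tifab_WT arrays. Its groups were apart, by a log2 difference of -0.25 (-0.21 without Tifab_WT replicate 3), which 8.37% of all genes showed as lower. Rag1 was not analysed here. Mature B genes had a median of 0.04 over 17 genes, 9 higher and 8 lower. That median was 0.06 without Tifab_WT replicate 3 and -0.04 without Tifab_KO replicate 2. Ms4a1, the gene of CD20, was dim at 3.13 to 3.43 in Tifab_KO arrays and 3.34 to 3.66 in Tifab_WT arrays. Without Tifab_WT replicate 3, 1 of the 17 passed the looser rule as higher, a description, where 2.29% of all genes did. This was Fcrla, named after its values were seen. It read 4.79, 6.46 and 5.26 in Tifab_KO arrays, against 4.56, 4.39 and 6.26 in Tifab_WT arrays.

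Plasmacytoid dendritic cells also carry some secretory and B-lineage transcripts, so their markers were measured beside these. Of 19 genes, 12 were higher and 7 lower in Tifab_KO, with a median log2 difference of 0.15, or 0.07 without Tifab_WT replicate 3. Their summed signal was 1762 to 1837 in Tifab_KO arrays and 1395, 1452 and 2041 in Tifab_WT arrays. That order over the Tifab_WT arrays is the order of the plasma cell list. It is also the order of the early B, mature B, unfolded protein response and LSK lists, so it is not particular to these genes. Ly6d, on this list, is also expressed by B-lineage precursors, and without it the sums were 1394 to 1564 in Tifab_KO arrays and 1294, 1320 and 1515 in Tifab_WT arrays. Within Tifab_WT, replicate 3 was the highest array in 11 of the 19 genes, against 32.3% of all genes. Siglech, which defines plasmacytoid dendritic cells, went the other way within Tifab_WT. It read 4.04, 4.25 and 4.31 in Tifab_KO arrays, against 4.55, 4.82 and 3.95 in Tifab_WT arrays. The part of such cells in the pattern was not tested beyond these values. T and NK cell genes had a median of -0.04 over 13 genes, or -0.05 without Tifab_WT replicate 3. Tifab_WT replicate 3 had the lowest summed signal of the 6 arrays, 1055. That sum rests mostly on Nkg7, by far the brightest of the 13, which read 10.06, 9.62 and 9.64 in Tifab_WT arrays. The 13 measured LSK genes had a median of 0.06, or 0.04 without Tifab_WT replicate 3. Their summed signal ran from 4348 to 4603 in Tifab_KO arrays and was 4176, 4321 and 4485 in Tifab_WT arrays. Among these LSK genes the groups were apart in Meis1, with a log2 difference of 0.39, and in Hlf, with -0.33. Of all genes 16.1% had groups apart.

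Immunoglobulin segments were among the most variable transcripts on these arrays. The table held 20 of them by symbol, 5 heavy chain, 14 kappa and 1 lambda, with a median range over the 6 arrays of 3.99 log2 units, against 0.59 over all genes. Only 9 of the 22180 genes ranged over more than 5 units, a limit set after the values were seen, and 8 of these 9 were segments; the other was 1110006O24Rik. Igkv9-120 read 11.20, 9.11 and 2.36 in Tifab_KO arrays, against 3.44, 8.68 and 8.43 in Tifab_WT arrays. Igkv4-91 read 5.76, 9.78 and 9.61 in Tifab_KO arrays, against 11.60, 10.41 and 4.15 in Tifab_WT arrays. In both, each group held high and low arrays. Tifab_KO replicate 2 and Tifab_WT replicate 2 were high in both, while the other 4 arrays were high in one and low in the other. Variable segments of the same family are similar in sequence, so a probe set may report more than its own segment.

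The brightest other segments varied to different degrees. Igkv5-43 read 12.24, 12.86 and 12.62 in Tifab_KO arrays, against 12.49, 12.14 and 12.85 in Tifab_WT arrays, and Igkv4-70 read 10.31, 8.33 and 9.87 in Tifab_KO arrays, against 9.09, 9.08 and 9.18 in Tifab_WT arrays. Ighv1-53 read 9.60, 9.64 and 9.77 in Tifab_KO arrays, against 5.74, 8.94 and 9.60 in Tifab_WT arrays, so that 1 array, Tifab_WT replicate 1, was low. Igkv15-103 read 11.22, 11.99 and 5.36 in Tifab_KO arrays, against 5.43, 7.19 and 11.11 in Tifab_WT arrays. Igkv4-72 was the single segment of the 20 past an unadjusted p under 0.05 with 1.5-fold as higher, where 1.29% of all genes passed. It read 9.49, 8.60 and 9.30 in Tifab_KO arrays, against 7.35, 7.74 and 8.07 in Tifab_WT arrays, a log2 difference of 1.41 ± 0.25 (SE, n = 3 each) or 1.58 without Tifab_WT replicate 3, and it did not pass over all genes. Over the 20 segments 13 were higher and 7 lower in Tifab_KO, with a median of 0.29, which was 0.37 without Tifab_WT replicate 3 and -0.00 without Tifab_KO replicate 2.

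**Figure D4:**
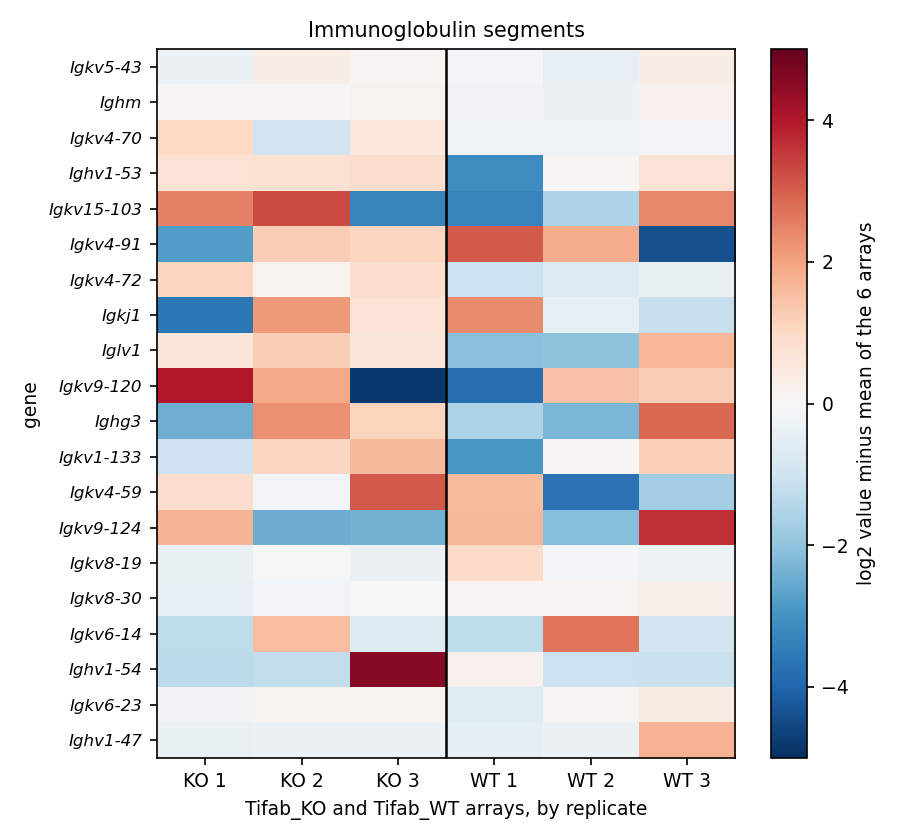
The 20 immunoglobulin segments, 1 per row from brightest to dimmest mean, 1 array per column (Tifab_KO left of Tifab_WT), coloured by log2 value minus the gene's mean over the 6 arrays. Igkv9-120 and Igkv4-91 each have high and low arrays in both groups, and Iglv1 is low only in Tifab_WT replicates 1 and 2.

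The genes most like 4 of the transcripts were sought over the 6 arrays, by the smallest root mean square difference between centred log2 values. For Iglv1 they were Myl10 at 0.426, the plasma cell receptor gene Tnfrsf17 at 0.427, Pou2af1 at 0.711 and the lymphoid surface gene Ly6d at 0.734. Myl10, a regulatory myosin light chain gene, read 8.37, 9.24 and 7.86 in Tifab_KO arrays, against 6.08, 6.65 and 9.70 in Tifab_WT arrays. Cd79a was closest to Ly6d at 0.253, followed by Stard5, Emp2 and, at 0.314, Jchain. Ly6d read 7.63, 8.71 and 8.37 in Tifab_KO arrays, against 6.65, 7.04 and 9.04 in Tifab_WT arrays, with Tifab_WT replicate 3 again on top. Jchain was closest to Scrn3 at 0.165, followed by Vmn1r175, Slc15a3 and Olfr1337. Vpreb1 was closest to Gm38396 at 0.0473, then Sp3, Gsdmc3 and Kctd15. With 6 arrays and 2839 or more candidates each, these are descriptions of likeness only.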

How the data were processed

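RNA of 6 LSK samples, 3 Tifab_KO and 3 Tifab_WT by their titles, was measured on 1 array each. The authors deposited log2 values of 41345 probe sets, made with Affymetrix Expression Console per the submitters' processing notes. The version and the steps of background correction, summary and normalization are not stated. Nothing was normalized again for the main results. Values brought to a common scale cannot show a shift in RNA content, and the number of arrays limits the precision.

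Probe sets were named from the platform annotation: 23521 had 1 symbol, 1814 several (left out) and 16010 were not listed. The brightest probe set stood for each of 1082 genes with several, leaving 22180 genes; entrez identifiers of 21994 matched RefSeq of GRCm38.p6, all with the same symbol. Genotypes were compared as Tifab_KO minus Tifab_WT with limma 3.58.1 in R 4.3.3 (lmFit, eBayes with an intensity trend, two-sided, Benjamini-Hochberg over all genes, threshold 0.05), tested on simulated data; a looser rule asked for an unadjusted p under 0.05 and 1.5-fold. SE is the moderated one.

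The genes, marker lists and tests were chosen with earlier results of these data known. Named are the 10 genes, defining markers of each list, up to 6 list genes past the looser rule, the 6 brightest other segments with 1 symbol and up to 4 genes of most alike pattern, among genes that range over at least 1 log2 unit (or 0.5 of the range of the gene matched, where smaller). Genes named beyond this (Tifab, Cd34, Dntt, Blnk, Fcrla, Meis1, Hlf, Igkv9-120 and 1110006O24Rik) were chosen after their values were seen. Rag1, Ighd and Ly6a, also on that list of defining markers, were not analysed here, and 1 further marker is not reported here. Alternatives were other variance moderation, quantile, median and cyclic loess normalization, a filter on genes under the 40th percentile of signal, averaged probe sets, a block for the replicate number, leaving out each array, a 2-fold limit and an adjusted p under 0.1.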

Additional observations from a re-analysis of the deposited data

How the results depend on the processing

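With 3 arrays per group, a single array moved most of these values. The count of genes past an adjusted p of 0.05 in limma was 0 with all arrays (2274 at an unadjusted p under 0.05) and 0 to 1 with an array left out: Iglv1 without Tifab_WT replicate 3 and Prg2 without Tifab_KO replicate 2. The count past p under 0.05 with 1.5-fold was 605 with all arrays, 356 without dim genes, 51 at 2-fold, and 682 to 1095 with an array left out, the highest without Tifab_WT replicate 3. Of the 605, 47.4% were higher in Tifab_KO; of the genes called under each alternative, 58.4% of 548 were higher after quantile normalization, 62.4% without dim genes and 42.9% without Tifab_WT replicate 1. The median log2 difference of the 5 plasma cell genes, 0.52, lay between 0.14 (without Tifab_WT replicate 1) and 1.01 (without Tifab_WT replicate 3), positive under all 12 alternatives; that of the 5 early B genes, 0.17, lay between -0.13 and 0.36. Single genes kept their sign in 111 of 119 recomputed values, many of which could not change. The replicate block and the filter on dim genes return a gene's difference unchanged, and averaged probe sets changed only that of Ighm. Apart from that value, the signs kept under these settings are no check. Nor is the plasma cell median of 0.52 that they returned. Same-numbered arrays did not deviate together (correlations of 0.020, -0.031 and -0.088 across genes). These values give no sign that the numbers pair the samples and cannot exclude it. With the replicate number as a block, 647 genes passed the looser rule and 0 the adjusted one. Both medians stood at 0.52 and 0.17, which a block cannot change in this balanced design. The list counts without Tifab_WT replicate 3 or Tifab_KO replicate 2, and the dendritic cell sums without Ly6d, were added after the data were seen.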
